A study of Rattus norvegicus with 30 samples.

Results

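The genes of the extracellular matrix were followed in the developing rat testis and in pieces of testis kept in organ culture. The set comprised collagens, laminins and their linkers, fibronectin and elastic fibre proteins, small leucine-rich proteoglycans and matricellular proteins. It was taken by gene symbol, with earlier results of these data known. Of 42 symbols, 32 were found among the 17322 genes measured, and Col4a2, Col4a5, Col6a1, Col6a3, Col12a1, Lama2, Lamb1, Fbln2, Nid1 and Hspg2 were not analysed here. Libraries came from testes of Wistar Han rats at 6 ages, namely 8.5, 14.5 and 24.5 days postpartum (dpp), then 30.5 and 36.5 dpp, and last 53.5 dpp. Cultured libraries came from testes taken at 8.5 dpp and cut into fragments, which were kept on agarose gels at the interface of gas and medium. They were collected after 6 days (D6), 16 days (D16), 22 days (D22) or 28 days (D28). The culture medium held serum replacement, retinol and vitamin E. The labels name no genetic change in any group. There were 3 libraries per group and 2 at 14.5 dpp, where the other library was excluded by the study and is listed at 0 for all genes. The in vivo libraries of an age came from different testes and each cultured library from pooled explants, after the capsule (tunica albuginea) had been taken off. From the cultured explants the necrotic centre had also been cut out, so these libraries hold the outer zone only. The part of this in the comparisons of culture and testis was not tested. The age-matched pairs were D6 with 14.5 dpp, D16 with 24.5 dpp, D22 with 30.5 dpp and D28 with 36.5 dpp.

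As background, each seminiferous tubule of the testis is wrapped in a basement membrane, a sheet of type IV collagen and laminin joined by nidogens and perlecan. Sertoli cells and spermatogonia rest on its inner face. Peritubular myoid cells lie outside it and, with Sertoli cells, build it. Fibrillar collagens, elastic fibres and proteoglycans fill the outer wall and the interstitium between tubules, where fibroblast-like and Leydig cells lie. Matricellular proteins such as osteopontin and thrombospondins do not build fibres, but bind to cells and to the matrix around them.

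Values were deposited in FPKM, fragments per kilobase of transcript and per fixed number of mapped reads, so levels of different genes could be set side by side. No counts of reads entered, and depth is therefore unknown. A library listed 12520 to 13563 genes above 0. Log2 fold changes are differences of mean log2(FPKM + 1), given with their standard error, and understate the change of genes at low levels. A gene was called where limma gave an adjusted p of at most 0.05 and the group medians differed by at least 2-fold. Myoid markers (6 genes, among them Acta2 and Myh11) summed to 721 ± 26.9 FPKM at 8.5 dpp, to 269 ± 100.1 at D6 and to 121 ± 15.9 at D28 (SD, n = 3). Markers of interstitial mesenchyme (5 genes found) summed to 336 ± 8.03, 245 ± 51.9 and 163 ± 22.5 FPKM in these groups, and markers of Sertoli cells (9 genes) to 1505 ± 50.0, 1504 ± 126 and 4218 ± 399 FPKM. Not all Sertoli markers moved with their sum. At D28 Clu and Cldn11 were called higher than at 8.5 dpp, and Inha and Amh were called lower. The median log2 fold change of the 9 was 0.39. At 53.5 dpp the sums of myoid, mesenchyme and Sertoli markers were 39.4 ± 5.14, 8.95 ± 2.58 and 403 ± 64.3 FPKM, while 6 spermatid markers reached 19928 ± 2771 FPKM against 6.15 ± 2.17 at 8.5 dpp. Leydig markers (6 genes) summed to 271 ± 52.2 FPKM at 8.5 dpp and 29.0 ± 6.84 at D28, endothelial markers (6 genes) to 49.2 ± 1.72 and 59.4 ± 12.1, and mesothelial markers to 1.16 ± 1.61 and 2.29 ± 0.733. In these bulk libraries, fewer cells of a type and less RNA per cell cannot be told apart. The part of these marker shifts in the changes of matrix genes was not tested.

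The summed level of the matrix genes was highest at 8.5 dpp and lower at each later age in vivo. The 32 genes together reached 2554 ± 109 FPKM at 8.5 dpp (SD, n = 3) and 1564 ± 80.7 at 14.5 dpp (SD, n = 2). Their sum was 433 ± 114 FPKM at 24.5 dpp, 210.4 ± 49.4 at 36.5 dpp and 112 ± 13.7 at 53.5 dpp. Cultured tissues stayed near the young testis, at 1963 ± 151 FPKM on D6 and 2118 ± 283 on D16. The later sums were 2053 ± 236 FPKM on D22 and 1998 ± 178 on D28. As a share of all summed FPKM, matrix genes took 0.777% at 8.5 dpp, 0.0300% at 53.5 dpp and 0.643% at D28. In vivo, 23 of the 31 genes with a value above 0 had their highest mean at 8.5 dpp and 27 their lowest at 53.5 dpp. The same counts were not made over all genes. Every 53.5 dpp library lay below every 24.5 dpp library for 21 of 25 matrix genes and 63.8% of all genes tested. Every 14.5 dpp library lay below every 8.5 dpp library for 22 of 29 matrix genes and 29% of all genes tested.

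**Figure D1:**
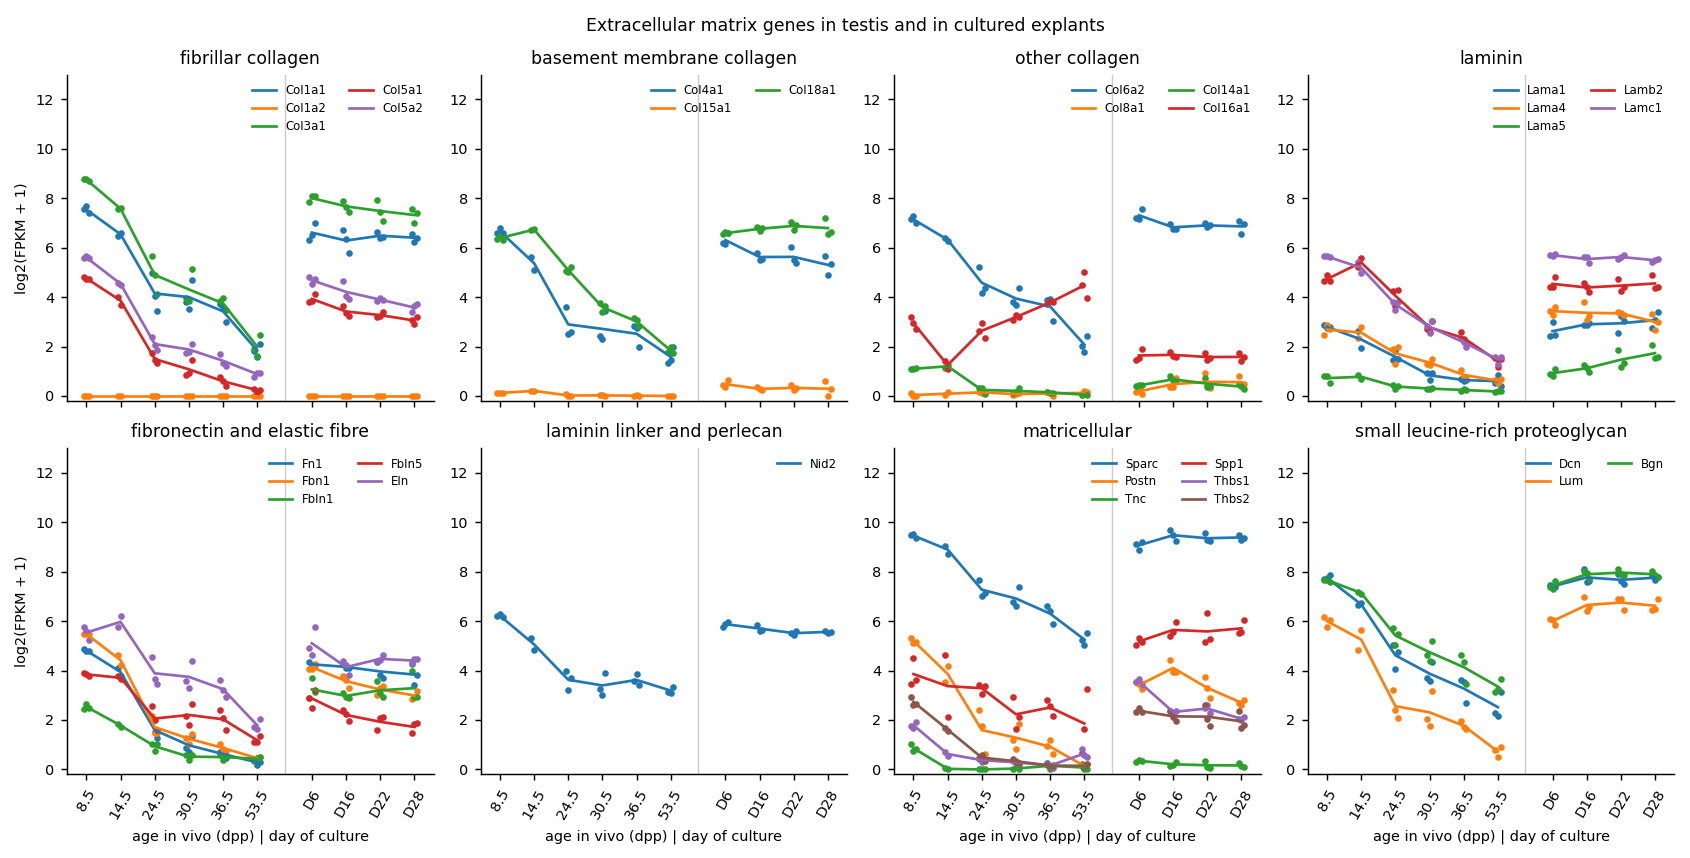
Levels of the 32 measured matrix genes, as log2(FPKM + 1), in every library (points) with the group means (lines) at 6 ages in vivo on the left and 4 culture times on the right of each panel, 1 panel per role of the protein. Most lines fall from 8.5 to 53.5 dpp, and Col16a1 climbs after 14.5 dpp. For many genes the cultured libraries stay near the level of the 8.5 and 14.5 dpp testes. At D28 Fbn1, Fbln5, Eln and Postn lie below both of these ages, and Spp1 and Thbs1 lie above both.

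By log2(FPKM + 1), the step from 14.5 to 24.5 dpp held the largest median change of the matrix genes among the steps compared. This scale understates falls to low levels, which bears most on the step to 53.5 dpp. The sum of fibrillar collagens, for instance, was 317 ± 8.41 FPKM at 14.5 dpp, 55.5 ± 28.7 at 24.5 dpp and 6.75 ± 1.95 at 53.5 dpp. Ratios of FPKM between these steps were not ranked. Among 29 matrix genes tested from 8.5 to 14.5 dpp, 12 fell and none was called higher, where 16.4% of all tested genes were called (9.31% higher and 7.06% lower). Their median log2 fold change was -0.82, against 0.07 over all genes tested. Lamb2 came nearest to a rise, at 0.67 ± 0.21 (adjusted p = 0.0166, limma), under the 2-fold limit. The count was 6 without the second 14.5 dpp testis, and the falls of Col1a1, Col3a1 and Dcn were not called without either 14.5 dpp testis. From 14.5 to 24.5 dpp, 24 of 28 fell and 1, Col16a1, rose (37.8% of all genes were called and 22.7% were lower), with a median of -1.65 against -0.18. In this step 6 of 6 myoid and 5 of 5 mesenchyme markers were lower and 5 of 5 spermatocyte markers were higher. Their sums at 14.5 and 24.5 dpp were 418 ± 145 and 92.0 ± 26.8 FPKM for myoid, 170.1 ± 28.2 and 46.2 ± 12.6 for mesenchyme and 44.3 ± 41.9 and 731 ± 13.2 for spermatocyte markers, and their part in the fall was not tested. From 24.5 to 53.5 dpp, 22 of 25 fell and Col16a1 rose again (69.7% called, 52.8% lower), with a median of -1.43 against -0.82. With libraries scaled by median ratios, the median over all genes in this last step moved to 0.02, that of the matrix genes to -0.85, and 15 fell and 2 rose, while over all genes 2350 fell and 3539 rose (6161 and 1964 without this scaling).

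Fibrillar collagens, the rope-like proteins that give tissue its tensile strength, summed to 689 ± 30.1 FPKM at 8.5 dpp, 263 ± 40.8 at D28 and 6.75 ± 1.95 at 53.5 dpp. Col3a1 (Entrez Gene 84032) encodes the chain of type III collagen and was the most abundant collagen of the young testis. It was at 432, 439.7 and 417 FPKM at 8.5 dpp, 186 and 193 at 14.5 dpp, 49.7, 29.1 and 16.3 at 24.5 dpp and 2.72, 2.11 and 4.49 at 53.5 dpp. Cultured tissues held 229, 271 and 267 FPKM at D6 and 189, 127 and 167 at D28. All D6 libraries lay above both 14.5 dpp testes, whereas D28 overlapped with them and lay above every testis of 24.5 dpp or older. Col3a1 fell from 8.5 dpp to D28 by 1.43 on the log2 scale (SE 0.19, adjusted p = 2.91e-05, limma).

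Col1a1 (Entrez Gene 29393), a chain of type I collagen, followed the same course, from 186, 203 and 168 FPKM at 8.5 dpp to 78.6, 89.2 and 128 at D6 and 93.9, 74.4 and 83.2 at D28, against 12.1, 11 and 6.86 at 36.5 dpp. No cultured library reached the 8.5 dpp testes, and the D28 libraries overlapped with those of D6. Its partner chain Col1a2 was listed at 0 in all 29 libraries, so its level is not given by these values. Type V collagen, which starts and thins the fibrils of type I, was also lower at D28. Col5a2 had a log2 fold change of -2.02 ± 0.15 from 8.5 dpp to D28 and Col5a1 of -1.71 ± 0.12, beside -1.14 ± 0.21 for Col1a1. Within a library, the ratio of Col5a2 to Col1a1 was 0.257 ± 0.0169 at 8.5 dpp, 0.262 ± 0.0733 at D6 and 0.133 ± 0.0284 at D28 (SD, n = 3). The D28 ratios, at most 0.154, all lay below the lowest at 8.5 dpp, 0.243, and overlapped with the testes of 24.5 dpp (0.204 ± 0.0639), 30.5 dpp (0.184 ± 0.0514) and 36.5 dpp (0.174 ± 0.0298). Only Col5a2 of the 4 fibrillar collagens tested was called between D6 and D28, at -1.10 ± 0.15.

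Collagens of the basement membrane moved apart between 8.5 and 14.5 dpp in vivo, and D28 cultures were near the 14.5 dpp testis for both that were tested. Col4a1 (Entrez Gene 290905), a chain of the type IV network, was at 100.3 ± 9.05 FPKM at 8.5 dpp, 41.1 ± 10.8 at 14.5 dpp, 78.7 ± 13.5 at D6 and 39.3 ± 10.2 at D28 (SD, n = 3, and n = 2 at 14.5 dpp). It fell by 1.29 on the log2 scale from 8.5 to 14.5 dpp (SE 0.38) and by 1.36 from 8.5 dpp to D28 (SE 0.20), with -0.07 ± 0.26 for D28 against 14.5 dpp. Col18a1 (Entrez Gene 85251) encodes type XVIII collagen, a heparan sulfate proteoglycan of basement membranes from which endostatin is cut. It was at 79.7, 89.8 and 78.8 FPKM at 8.5 dpp, 103 and 107 at 14.5 dpp and 144, 93.5 and 97.8 at D28, against 7.86, 7.43 and 6.07 at 36.5 dpp. The D28 libraries were all above those of 8.5 dpp and spread to both sides of the 14.5 dpp testes. Col18a1 was not called against either (log2 fold changes 0.40 ± 0.14 and 0.06 ± 0.18), but was 3.77 higher on the log2 scale at D28 than at 36.5 dpp (SE 0.19, adjusted p = 1.07e-06, limma). Col15a1, its relative, did not exceed 0.559 FPKM in any library.

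Among other collagens, Col16a1 (Entrez Gene 366474) ran against the rest. It encodes type XVI collagen, a fibril-associated collagen that binds to other matrix molecules. Its values were 8.16, 6.72 and 5.46 FPKM at 8.5 dpp, 1.64 and 1.13 at 14.5 dpp and 5.20, 6.69 and 4.07 at 24.5 dpp. They were 12.2, 13.3 and 12.8 FPKM at 36.5 dpp and 21.3, 30.9 and 14.5 at 53.5 dpp. The gene thus dipped at 14.5 dpp, below every other testis, and was highest in the adult testes, where no other of the 32 genes peaked. In culture it kept between 1.63 and 2.71 FPKM, below all 8.5 dpp testes and all testes of 24.5 dpp or older. The log2 fold change was -1.31 ± 0.15 from 8.5 dpp to D6, -0.06 ± 0.15 from D6 to D28, and -2.20 ± 0.12 for D28 against 36.5 dpp, where it was the only matrix gene called lower (25 of 27 were higher). Col6a2, a chain of the beaded filaments of type VI collagen, held at 116 ± 22.1 FPKM at D28 against 140.3 ± 13.7 at 8.5 dpp and was not called (-0.28 ± 0.14). Col14a1, which decorates collagen fibrils, was at 1.14 ± 0.0331 FPKM at 8.5 dpp and 0.344 ± 0.0245 at D6, and was called lower at all 4 culture times than at 14.5 dpp. Col8a1 did not exceed 0.911 FPKM in any library.

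Laminins, the cross-shaped trimers that carry the basement membrane, held their level in culture as a group while their chains shifted. The 5 chains found summed to 86.6 ± 4.20 FPKM at 8.5 dpp, 87.2 ± 0.452 at 14.5 dpp and 83.7 ± 5.12 at D28, against 9.20 ± 1.62 at 36.5 dpp. Lamc1 (Entrez Gene 117036), the gamma 1 chain shared by most laminins, ranged from 40.2 to 52.0 FPKM over the 12 cultured libraries and from 47.7 to 50.1 at 8.5 dpp. It fell from 14.5 to 24.5 dpp by 1.48 and from 24.5 to 53.5 dpp by 2.22 on the log2 scale. Lama1, an alpha chain of early basement membranes, was at 5.93 ± 0.287 FPKM at 8.5 dpp and 7.53 ± 1.96 at D28. Lama4, an alpha chain of vessels and the interstitium, was at 5.50 ± 0.927 and 7.11 ± 1.82 FPKM in these groups. Neither was called against 8.5 dpp.

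Lamb2 (Entrez Gene 25473), the beta 2 chain of mature basement membranes, had values of 24.4, 28.4 and 23.9 FPKM at 8.5 dpp and 35.9 and 47.4 at 14.5 dpp. In culture it was at 19.9, 20.4 and 26.8 FPKM at D6 and 28.4, 19.7 and 20.1 at D28. Every cultured library lay below both 14.5 dpp testes, and the D28 libraries straddled the 8.5 dpp values. Set against Lamc1 in the same library, Lamb2 was at a ratio of 0.522 ± 0.0398 at 8.5 dpp (SD, n = 3), and between 0.864 and 1.57 in every testis from 14.5 dpp on. Cultured libraries kept ratios between 0.377 and 0.670, which did not reach the range of the older testes. This ratio does not depend on how libraries were scaled. Lamb2 was called lower at D28 than at 14.5 dpp (-0.85 ± 0.20, adjusted p of the F test = 0.0127, limma), a call that was lost with median-ratio scaling, or without the second 14.5 dpp testis or the second or the third D28 library.

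Lama5 (Entrez Gene 140433), an alpha chain of mature basement membranes, was low, at 0.767, 0.757 and 0.442 FPKM at 8.5 dpp, 0.841, 0.735 and 1.13 at D6, 1.40, 1.19 and 0.960 at D16 and 3.18, 1.91 and 2.02 at D28. All D28 values lay above those of D6, and all testes of 24.5 dpp or older were at or below 0.356 FPKM. It was the only matrix gene called higher at D28 than at D6 at the 2-fold limit (0.81 ± 0.18, adjusted p = 0.00502, limma). Relative to Lamc1 in the same library, Lama5 climbed in both settings, but its own level moved in opposite directions. In vivo Lama5 fell from 0.718 ± 0.126 FPKM at 14.5 dpp to 0.183 ± 0.0350 at 36.5 dpp, under the 0.5 FPKM filter. Lamc1 fell further, from 35.9 ± 8.05 to 3.52 ± 0.572 FPKM. In culture Lama5 rose from 0.901 ± 0.203 FPKM at D6 to 2.37 ± 0.702 at D28, and Lamc1 was at 50.9 ± 1.25 and 44.0 ± 1.66 FPKM. The ratio was 0.0201 ± 0.00101 at 14.5 dpp, 0.0250 ± 0.00273 at 24.5 dpp, 0.0394 ± 0.00712 at 30.5 dpp and 0.0533 ± 0.0149 at 36.5 dpp. In the cultures of matching age it was 0.0177 ± 0.00357, 0.0258 ± 0.00251, 0.0382 ± 0.0173 and 0.0542 ± 0.0180, so the ranges of culture and testis overlapped at all 4 matched ages. Nid2, the nidogen that links laminin to type IV collagen, was at 73.4 ± 3.05 FPKM at 8.5 dpp, 46.3 ± 1.37 at D28 and 8.14 ± 0.878 at 53.5 dpp. It was not called between 24.5 and 53.5 dpp (-0.44 ± 0.23).

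**Figure D2:**
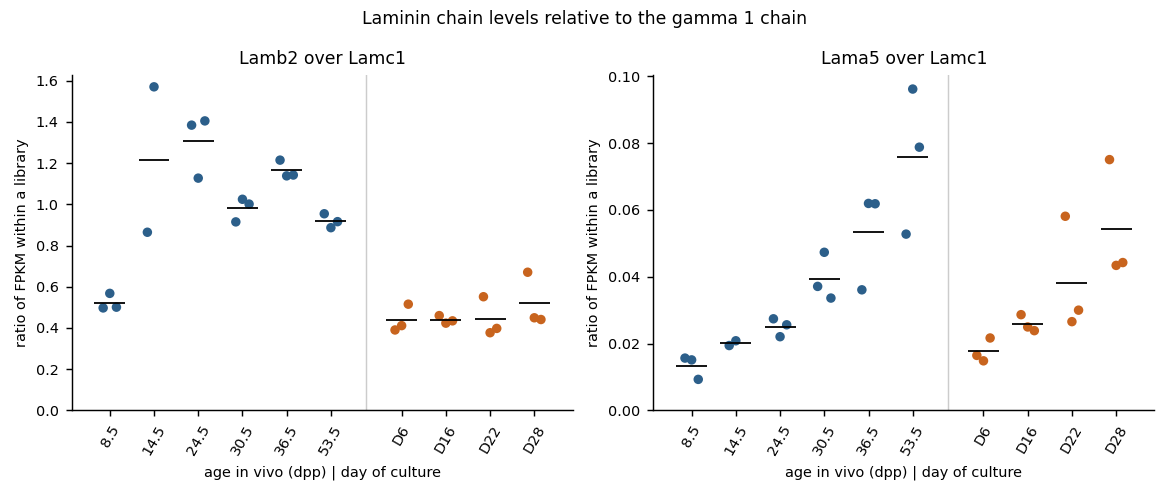
Ratio of the FPKM of Lamb2 (left) and Lama5 (right) to that of Lamc1 within each library (points; blue in vivo, orange in culture), with group means as black lines, over 6 ages and 4 culture times. Lamb2 to Lamc1 steps up between 8.5 and 14.5 dpp and does not do so in culture, where it is at or below the 8.5 dpp level in most libraries. Lama5 to Lamc1 climbs with time in both, in vivo while Lama5 itself falls and Lamc1 falls further, and in culture while Lama5 rises.

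Elastic fibre genes were among those with the largest falls in culture. Fbn1 (Entrez Gene 83727) encodes fibrillin 1, the microfibril scaffold on which elastin is laid. It was at 44.1, 43.6 and 42.9 FPKM at 8.5 dpp, 15.9, 15.5 and 18.5 at D6, 12.6, 11.4 and 8.93 at D16 and 6.29, 6.57 and 8.09 at D28. The groups did not overlap from 8.5 dpp to D6 and from D6 to D16. It fell by 2.49 on the log2 scale from 8.5 dpp to D28 (SE 0.13, adjusted p = 5.89e-09, limma) and was already called lower at D6 (-1.34 ± 0.13).

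Fbln5 (Entrez Gene 29158), fibulin 5, which places elastin on microfibrils, was at 13.9, 13.5 and 12.6 FPKM at 8.5 dpp and 12.6 and 11.5 at 14.5 dpp. It was at 6.48, 4.57 and 8.38 FPKM at D6, 4.34, 3.67 and 2.92 at D16 and 1.75, 2.54 and 2.65 at D28. All cultured values were below both young ages, and D28 overlapped with the 4.28, 3.24 and 2.04 FPKM of the 36.5 dpp testes. The log2 fold change was -2.13 ± 0.19 for D28 against 8.5 dpp and -0.31 ± 0.22 against 36.5 dpp. Fbln5 was the only 1 of the 27 matrix genes tested that was not called between D28 and 36.5 dpp, and it was called lower there with median-ratio scaling. The drop from D6 to D28 (-1.15 ± 0.19) did not differ by the test from the drop from 14.5 to 36.5 dpp (-1.68), with a difference of 0.52 ± 0.35 and an adjusted p of 0.189 (limma).

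Eln (Entrez Gene 25043), elastin itself, was at 52.8, 48.1 and 36.7 FPKM at 8.5 dpp and 52.8 and 72.0 at 14.5 dpp. In culture it was at 29.0, 24.0 and 53.0 FPKM at D6, 20.0, 17.6 and 12.9 at D16 and 18.7, 20.9 and 20.9 at D28, with 1 high library at D6. The D16, D22 and D28 libraries all lay below the young testes, and D28 lay above the 11.3, 8.15 and 6.59 FPKM of 36.5 dpp. Eln was lower at D28 than at 14.5 dpp by 1.57 on the log2 scale (SE 0.18) and higher than at 36.5 dpp by 1.16 (SE 0.18), the latter only without quantile or median-ratio scaling. Fbln1, fibulin 1, a ligand of fibronectin and laminin, went the other way. It was at 4.50, 5.26 and 4.63 FPKM at 8.5 dpp, 2.61 and 2.26 at 14.5 dpp, 6.34, 12.1 and 7.67 at D6 and 14.9, 6.6 and 6.69 at D28. Every cultured library was above every testis. It was called higher at D28 than at 14.5 dpp (1.51 ± 0.30) but not against 8.5 dpp (0.75 ± 0.27), and the first call was lost without either 14.5 dpp testis. Fn1, fibronectin, the main cell-binding glycoprotein of loose matrix, was at 27.0 ± 0.758 FPKM at 8.5 dpp and 13.7 ± 4.19 at D28, a fall of 0.97 on the log2 scale, which was not called without the second or the third D28 library.

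Small leucine-rich proteoglycans, which coat collagen fibrils and set their width and spacing, kept the level of the young testis. Dcn (decorin, Entrez Gene 29139) was at 207, 201 and 232 FPKM at 8.5 dpp, 98.3 and 104 at 14.5 dpp, 174, 167 and 164 at D6 and 224, 201 and 221 at D28, against 11.3, 10.5 and 5.42 at 36.5 dpp. Lum (lumican, Entrez Gene 81682) was at 71.5, 53.0 and 65.5 FPKM at 8.5 dpp, 27.8 and 49.5 at 14.5 dpp and 67.5, 65.5 and 56.1 at D6. It was at 125, 82.9 and 94.1 FPKM at D16, 119, 117 and 87.1 at D22 and 86.3, 89.6 and 119 at D28. From D16 on, every Lum value lay above every testis of any age. Bgn, biglycan, was at 201 ± 10.1 FPKM at 8.5 dpp, 139.5 ± 7.56 at 14.5 dpp and 237 ± 18.9 at D28.

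None of the 3 was called between D28 and 8.5 dpp, at log2 fold changes of 0.01 ± 0.14 for Dcn, 0.62 ± 0.18 for Lum and 0.23 ± 0.11 for Bgn. Against 14.5 dpp, Dcn (1.08 ± 0.17) and Lum (1.37 ± 0.27) were called higher at D28 and Bgn (0.76 ± 0.13) was under the 2-fold limit. The largest differences of all matrix genes from the 36.5 dpp testis were those of Lum (4.85 ± 0.16) and Dcn (4.48 ± 0.24), under each scaling tried. The balance between proteoglycans and fibrils moved within libraries. Summed FPKM of Dcn, Lum and Bgn over that of fibrillar collagens was 0.696 ± 0.0473 at 8.5 dpp, 0.880 ± 0.0147 at 14.5 dpp, 1.04 ± 0.118 at D6 and 2.12 ± 0.260 at D28. In older testes it was 1.51 ± 0.793 at 24.5 dpp, 1.16 ± 0.148 at 30.5 dpp, 1.15 ± 0.200 at 36.5 dpp and 2.23 ± 0.217 at 53.5 dpp. Against the same proteoglycans, Fbn1, Fbln5 and Eln together were at 0.215 ± 0.0232 at 8.5 dpp, 0.451 ± 0.0802 at 36.5 dpp, 0.144 ± 0.0422 at D6 and 0.0536 ± 0.00548 at D28. From D16 on this second ratio stayed below 0.0730 or equal to it, while no testis was below 0.188.

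**Figure D3:**
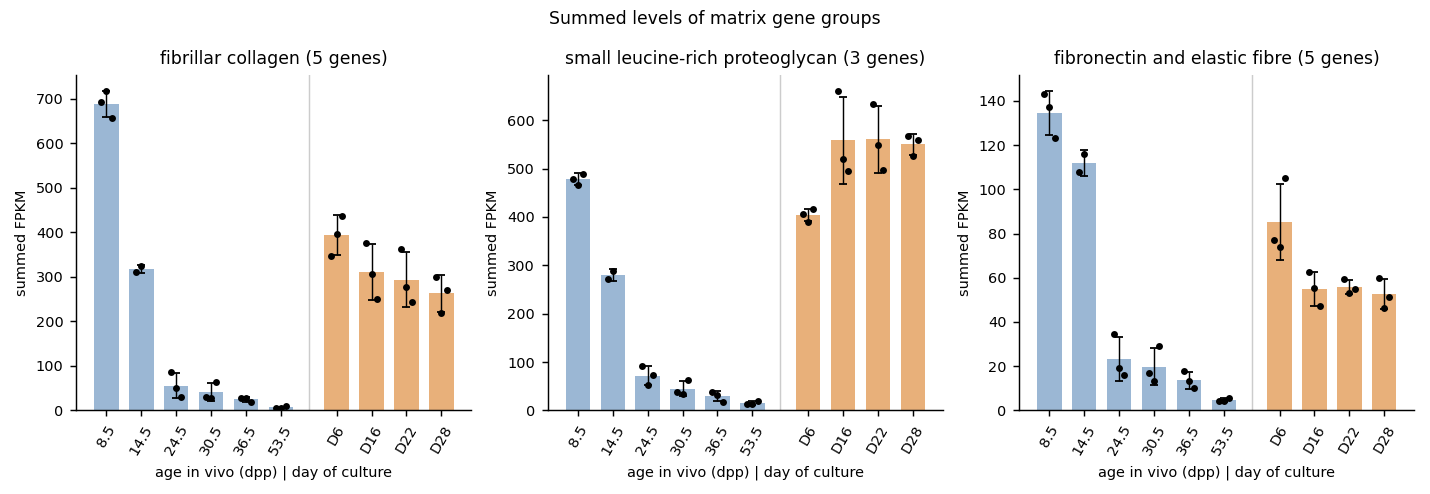
Summed FPKM of fibrillar collagens (left), small leucine-rich proteoglycans (middle) and fibronectin with elastic fibre genes (right) over 6 ages in vivo (blue) and 4 culture times (orange). Bars are group means from 0, error bars are SD and points are libraries (3 per group, 2 at 14.5 dpp). Proteoglycans stay at or above the 8.5 dpp level from D16 on, whereas the other sums fall in culture and all 3 fall with age.

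Matricellular genes held the largest rises against the 8.5 dpp testis. Spp1 (Entrez Gene 25353) encodes osteopontin, a secreted ligand of integrins and CD44 made by many stressed or immune cells. It was at 10.0, 21.7 and 11.1 FPKM at 8.5 dpp, 23.4 and 3.38 at 14.5 dpp, 31.9, 38.8 and 35.1 at D6 and 44.7, 45.7 and 65.6 at D28. All cultured libraries were above all testes, and the 14.5 dpp pair differed widely. Spp1 rose by 1.85 on the log2 scale from 8.5 dpp to D28 (SE 0.32, adjusted p = 0.000216, limma). Macrophage markers (7 genes) summed to 41.2 ± 3.48 FPKM at 8.5 dpp and 55.0 ± 18.9 at D28. Of the 6 tested, 3 were called higher at D28 than at 8.5 dpp and none lower, where 13.5% of all genes were higher. The part of macrophage markers in the rise of Spp1 was not tested.

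Thbs1 (Entrez Gene 445442), thrombospondin 1, an early-induced glycoprotein that can activate latent TGF-beta, peaked early in culture. It was at 2.38, 2.21 and 2.78 FPKM at 8.5 dpp, 10.8, 11.7 and 9.84 at D6, 4.15, 3.78 and 4.10 at D16 and 3.07, 3.03 and 3.30 at D28. Again no cultured library overlapped with any testis. The gene rose by 1.77 to D6 (SE 0.10, adjusted p = 2.29e-08, limma) and fell by 1.5 from D6 to D28 (SE 0.10). Thbs2, its relative, showed no such peak, at 5.67 ± 0.771 FPKM at 8.5 dpp, 4.18 ± 0.344 at D6 and 2.94 ± 1.08 at D28.

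Postn (Entrez Gene 361945), periostin, a binder of collagen and fibronectin in remodelling connective tissue, was at 39.3, 33.3 and 34.8 FPKM at 8.5 dpp and 10.5, 10.1 and 8.41 at D6. It was at 20.3, 14.3 and 14.6 FPKM at D16, above all D6 libraries, and at 5.41, 5.05 and 6.05 at D28. Beside that of Fbn1, its fall from 8.5 dpp to D28 was the deepest of the matrix genes tested (-2.50 ± 0.18, adjusted p = 1.15e-07, limma). Sparc, a collagen chaperone and the most abundant of the 32 genes, was at 702 ± 46.4 FPKM at 8.5 dpp, 537 ± 57.6 at D6, 668 ± 45.6 at D28 and 37.6 ± 6.68 at 53.5 dpp, and was not called between D28 and 8.5 dpp (-0.07 ± 0.12). Tnc, tenascin C, was at 0.824 ± 0.185 FPKM at 8.5 dpp and at most 0.314 in culture.

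**Figure D4:**
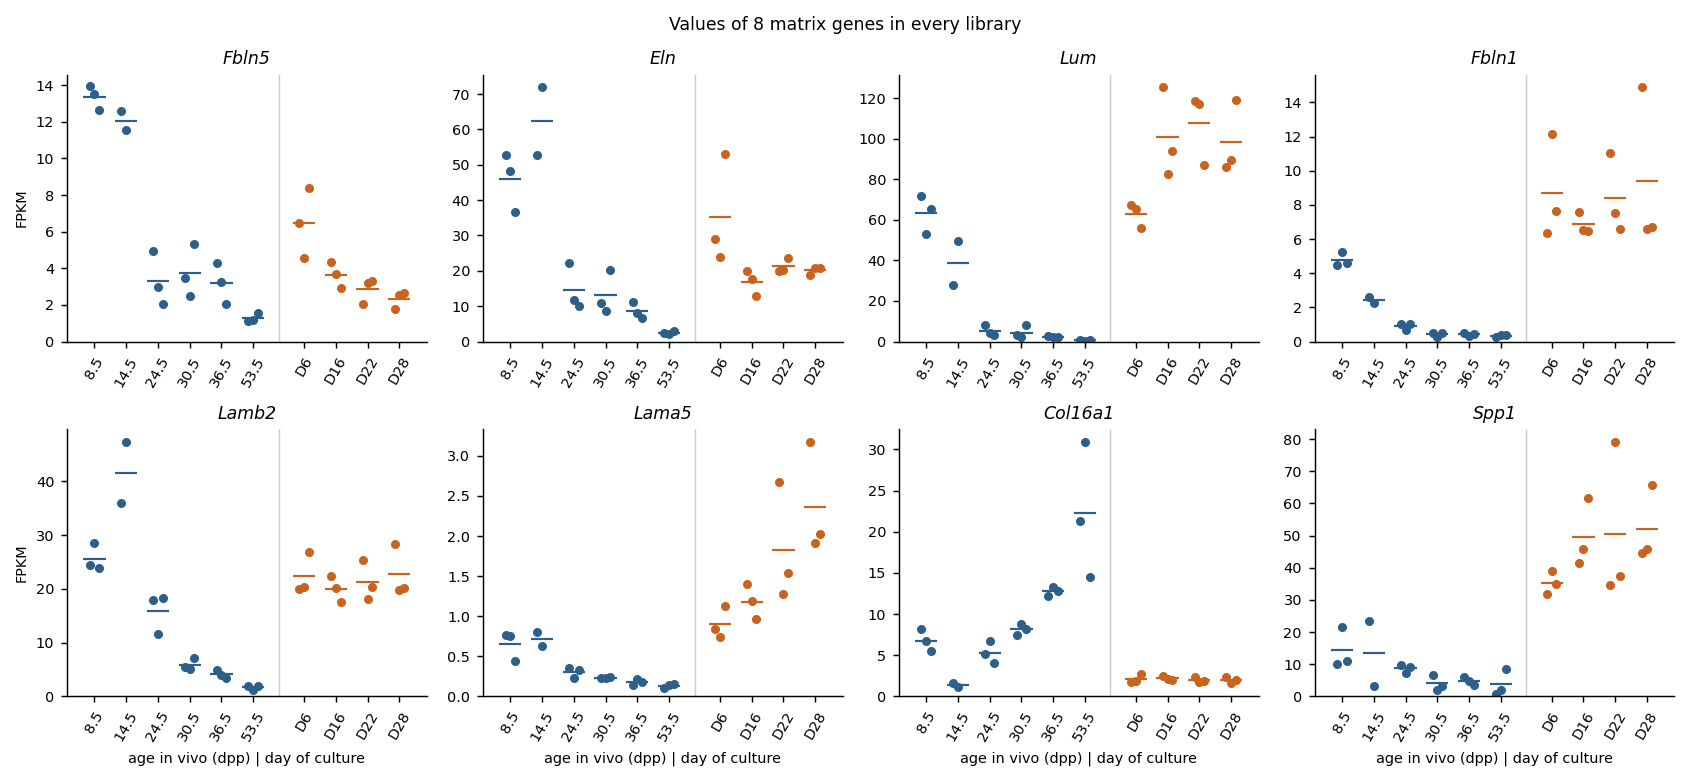
FPKM of 8 matrix genes in every library (points; blue in vivo, orange in culture) with group means (lines), over 6 ages and 4 culture times, each panel on its own linear axis from 0. Fbln5 and Eln drop in culture, Lum, Fbln1, Lama5 and Spp1 lie at or above the young testes at D28, Lamb2 lacks the 14.5 dpp peak, and Col16a1 stays low.

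Compared with the tissue at explantation, the cultures had fewer changes at D6 than at D28. At D6, 7 of 29 matrix genes tested were lower than at 8.5 dpp (Col1a1, Col14a1, Col16a1, Fbn1, Fbln5, Postn and Tnc) and Spp1 and Thbs1 were higher, where 16.3% of all genes were called (9.9% higher and 6.4% lower). At D28, 14 of 29 were lower and 2, Lama5 and Spp1, were higher (24.1% of all genes were called, 10.6% lower and 13.5% higher). Their median log2 fold change was -0.65, against 0.03 over all genes tested. The lower genes included 4 of 4 fibrillar collagens and 4 of 5 genes of fibronectin and elastic fibres, and no laminin or small leucine-rich proteoglycan. In the same comparison 6 of 6 myoid markers, 4 of 5 mesenchyme markers and 5 of 6 Leydig markers were lower, and their part in these counts was not tested. From D6 to D28 only 5 of 27 were called (5.95% of all genes, 2.77% lower): Col5a2, Fbn1, Fbln5 and Thbs1 lower and Lama5 higher.

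The study's main comparison set the cultures beside the 14.5 dpp testis. Matrix genes called in it numbered 8 of 28 at D16 (11.9% of all genes, 6.56% higher and 5.35% lower), 10 at D22 (12.9%, 7.34% higher and 5.51% lower) and 12 at D28 (13.6%), with equal counts higher and lower at each time. At D28 the higher genes were Lama5, Fbln1, Dcn, Lum, Spp1 and Thbs1 and the lower ones Col14a1, Lamb2, Fbn1, Fbln5, Eln and Postn. The median log2 fold change of matrix genes at D28 was 0.32, against -0.08 over all genes tested. This comparison rests on 2 testes, and the count at D22 was 6 without either of them. The calls of Lama5 and Fbln1 at D28 were lost without either 14.5 dpp testis, that of Lum without the first, and those of Spp1, Lamb2 and Postn without the second. At D6, 4 of 28 were called against 14.5 dpp (7.94% of all genes, 5.57% higher and 2.37% lower): Fbln1 and Thbs1 higher, Col14a1 and Lamb2 lower. With median-ratio scaling 3 were higher and 1 lower, and over all genes 662 were higher and 240 lower. The count of matrix genes called at D6 was 7 without the first 14.5 dpp testis and 2 without the first D6 library.

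**Figure D5:**
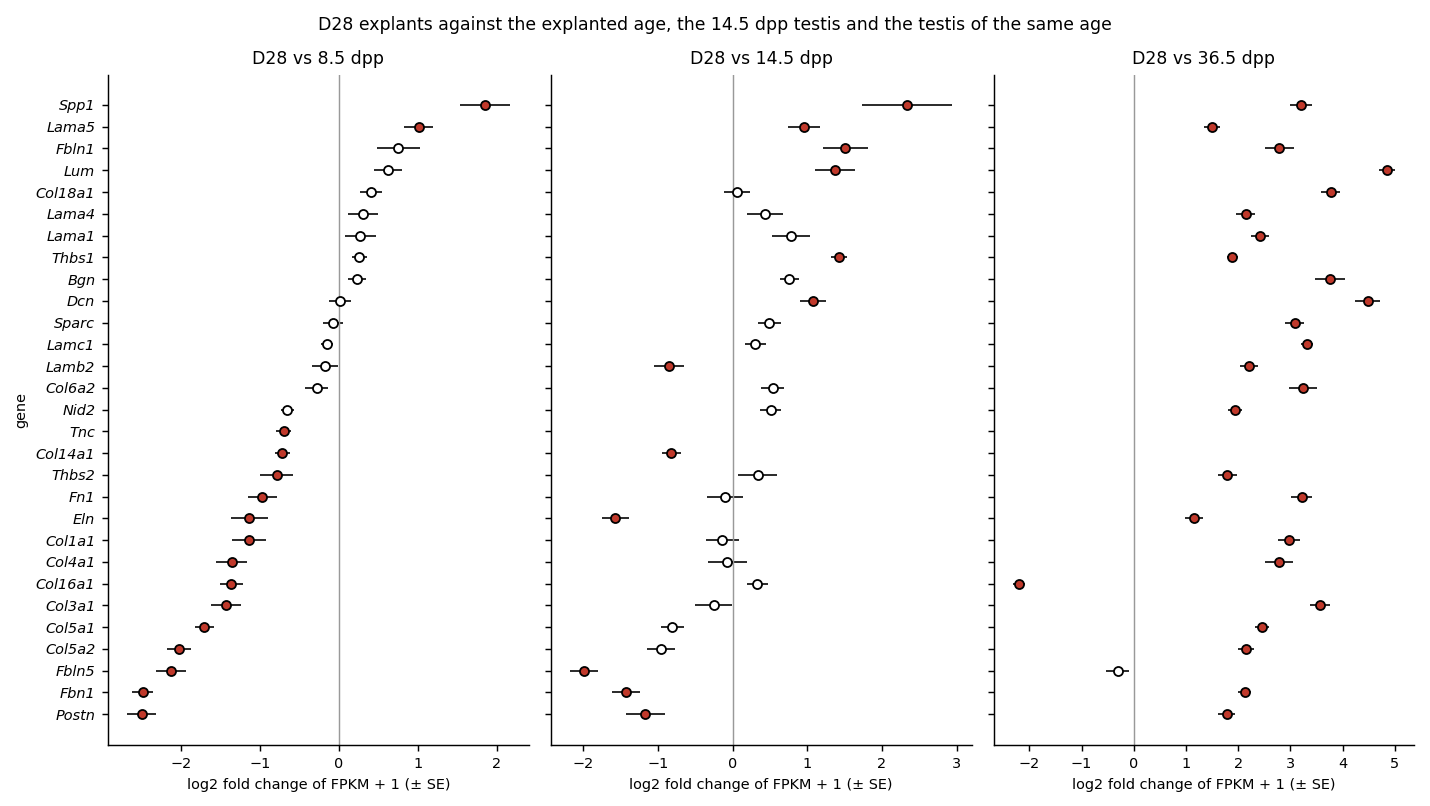
Log2 fold change of FPKM + 1 with its standard error (points and bars) of the matrix genes tested in D28 tissues against the 8.5 dpp testis (left), the 14.5 dpp testis (middle) and the 36.5 dpp testis (right), with called genes in red and others in white. Genes are in the order of the left panel, with Postn, Fbn1 and Fbln5 lowest and Spp1 highest, and on the right 25 genes lie above 0 in red, Col16a1 below it, and Fbln5 is white.

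Most matrix genes were higher in culture than in testes of the same age. At D16, 24 of 28 matrix genes were higher than at 24.5 dpp and Col16a1 was lower (43.6% of all genes were called, 25.3% higher and 18.3% lower). At D22 the counts were 24 and 1 of 27 against 30.5 dpp (65% called, 42.1% higher), and at D28 they were 25 and 1 of 27 against 36.5 dpp (70.3% called, 46.7% higher). The median log2 fold change at D28 was 2.46, against 0.64 over all genes tested. With median-ratio scaling these medians were 1.90 and -0.03. Of the matrix genes 24 were then higher and 2 lower, while over all genes 3747 were higher and 4181 lower. At D28 against 36.5 dpp 5 of 5 mesenchyme and 8 of 9 Sertoli markers were higher, 1 of 6 myoid markers was higher, and 6 of 6 spermatid markers were lower. Mesenchyme markers summed to 18 ± 5.76 FPKM and spermatid markers to 4977 ± 954 FPKM at 36.5 dpp, against 163 ± 22.5 and 5.26 ± 0.744 FPKM at D28. The part of these markers in the counts was not tested. Changes over time were also tested against each other. The change from D6 to D28 differed from that between 14.5 and 36.5 dpp for 26 of 28 matrix genes, as it did for 76.5% of all genes tested. For 24 of the 26 the change in culture was the higher one, as for 6356 of the 9544 genes called over all (50.9% of those tested), and for 10 of the 26 the signs were opposite. With median-ratio scaling the change in culture was higher for 22 matrix genes and lower for 2, and over all genes for 4143 and 4754. Spp1 and Fbln5 were not called.

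Other genes of the pathway, from fixed lists, were compared between D28 and 14.5 dpp. None of 19 tested genes of collagen folding and crosslinking was called at D28, among them the collagen chaperone Serpinh1 and the crosslinking oxidases of the Lox family, with a median log2 fold change of 0.05. Against 14.5 dpp, 2 of the 19 were called higher at D16 and 1 at D22, and none was called lower. Over all genes, 6.56% were called higher at D16 and 7.34% at D22. Without the 2-fold limit 7 of the 19 passed by the adjusted p of the F test over D16, D22 and D28. Of these, 4 had a higher and 3 a lower mean at D28. The share of all genes that passed by this rule is not given here. Over all genes, limma's unadjusted p of D28 against 14.5 dpp was below 0.05 for 5713 of 11517. Among the 7, the largest difference at D28 was that of P4ha1 (1.03 ± 0.20), a prolyl hydroxylase that modifies collagen chains before they fold. P4ha1 was called higher at D16 and D22, and its ratio of medians at D28 was 1.98, just under the limit. In the same list 17 of 19 were higher at D28 than at 36.5 dpp (median 2.42), where 46.7% of all genes were higher and the median over all genes was 0.64. Of 19 integrins and other receptors, 4 were higher and 2 lower than at 14.5 dpp. Ddr1, a receptor kinase for collagen, was at 27.3 ± 1.27 FPKM at 8.5 dpp, 39.0 ± 0.936 at 14.5 dpp and 131 ± 24.3 at D28, a log2 fold change of 1.70 ± 0.19. Itga7, a laminin-binding integrin chain, rose by 1.31 and Itga8, which pairs with integrin beta 1 to bind nephronectin and fibronectin, fell by 1.21. Bcam, a receptor for laminin alpha 5, fell by 0.89.

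Among 9 other laminin and basement membrane genes, Ntn4, netrin 4, which binds the gamma 1 arm of laminin and opens its network, was the only one called, at 20.1 ± 6.76 FPKM at 14.5 dpp and 108 ± 15.0 at D28 (2.40 ± 0.21). Col4a4, a chain of the late type IV network, was the only 1 of 5 further collagens called, at 8.14 ± 1.93 and 2.26 ± 1.07 FPKM (-1.52 ± 0.35). Of 15 other elastic fibre and glycoprotein genes, 3 fell, the microfibril proteins Mfap5 (-1.15 ± 0.19), Ltbp2 (-1.10 ± 0.16) and Fbn2, and none rose. Of 6 other proteoglycans, Vcan, the large hyaluronan-binding versican (-1.25 ± 0.16), and Spock2 (-1.01 ± 0.15) fell. Of 15 genes of the TGF-beta pathway, the main inducer of collagen synthesis, 4 were called higher and none lower. Tgfbr2, a receptor of this pathway, rose by 0.98 on the log2 scale, with a ratio of medians of 2.02, near the limit. Without the 2-fold limit 9 of the 15 passed by the adjusted p of the F test, 7 with a higher and 2 with a lower mean at D28. The share of all genes by this rule is not given here. The 15 genes summed to 280 ± 8.76 FPKM at 14.5 dpp (SD, n = 2) and 294 ± 14.0 at D28 (SD, n = 3). Over all genes, 7.64% were called higher and 6% lower in this comparison.

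Promoters of 20 of the 32 genes were found in RefSeq sequences of the rat assembly GRCr8 and searched, over the 250 bases before the start site, for 4 short motifs on both strands. CCAAT was in 20% of these promoters (34.0% of 33469 promoters of the same length), TATAAA in 25% (12.9%) and GGGCGG in 50% (30.5%), and the CArG box, which serum response factor binds, was in none (1.5%). These motifs did not overlap in the sequences shown. A match is a run of letters and not a measured binding site. The promoters of Lum, which was above all testes from D16 on, of Fbln5, which fell from 8.5 dpp to D28, and of Spp1, which rose, are shown, chosen after their values were seen, with matches in capitals. The Lum promoter (chr7:34245456-34245705, plus strand) holds CCAAT on the opposite strand, that of Fbln5 (chr6:126742707-126742956, minus strand) holds GGGCGG on the opposite strand, and that of Spp1 (chr14:5619805-5620054, minus strand) holds TATAAA.
Lum: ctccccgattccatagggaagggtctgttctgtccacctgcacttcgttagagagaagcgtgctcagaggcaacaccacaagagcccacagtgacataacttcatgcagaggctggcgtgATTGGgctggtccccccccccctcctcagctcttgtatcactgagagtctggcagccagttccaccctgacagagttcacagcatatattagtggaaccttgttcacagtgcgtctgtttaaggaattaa
Fbln5: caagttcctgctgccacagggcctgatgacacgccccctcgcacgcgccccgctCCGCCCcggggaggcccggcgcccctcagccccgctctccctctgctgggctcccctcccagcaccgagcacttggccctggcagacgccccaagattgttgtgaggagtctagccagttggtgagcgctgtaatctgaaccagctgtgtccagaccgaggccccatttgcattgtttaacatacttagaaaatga
Spp1: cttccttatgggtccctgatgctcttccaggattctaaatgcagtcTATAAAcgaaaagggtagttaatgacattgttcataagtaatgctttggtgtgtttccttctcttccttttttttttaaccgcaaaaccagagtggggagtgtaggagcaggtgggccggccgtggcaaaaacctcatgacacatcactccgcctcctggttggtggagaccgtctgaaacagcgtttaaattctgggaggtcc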

How the data were processed

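RNA was sequenced in 30 libraries, of which 29 were used; the other, from 14.5 dpp, was excluded by the study and is listed at 0 for all 17322 genes. Per the labels and the study's methods, poly(A) RNA was made into stranded libraries, sequenced as single reads of 50 bases, demultiplexed with bcl2fastq 2.17.1.14 and aligned to rn6 with STAR 2.5.2a, and how transcripts were combined into genes was not given in the sources used here. The authors deposited FPKM values per Entrez gene, 17172 of which carried a symbol. Depth is unknown, and the number of libraries limits the precision. No interval for counting error was computed.

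From the deposited FPKM, log2(FPKM + 1) was fitted with limma 3.58.1 in R 4.3.3 over the groups of each comparison. A gene entered where the median of 1 compared group or more reached 0.5 FPKM. P-values were adjusted by Benjamini-Hochberg over all genes kept. Calls needed an adjusted p no higher than 0.05 and group medians that differed 2-fold or more. For D16, D22 and D28 against 14.5 dpp the p was that of the F test over the 3 contrasts, after the study's methods. The difference between the changes in culture and in vivo was called by adjusted p alone. Calls are two-sided. In vivo replicates are different testes, and each cultured replicate pools explants of several juvenile males, so p-values measure the spread between these samples. The fit was tested on simulated data, where 200 genes shifted by 2 on the log2 scale were recovered at 95.6% for D28 against 14.5 dpp over 11276.8 genes on average, and 2.8 other genes were called on average. The shifted genes had a mean log2(FPKM + 1) above 1, and noise was normal and independent between genes. Recovery of lower genes and of shifts near the 2-fold limit was not tested.

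Genes, pathway lists and markers were chosen with earlier results of these data known. All matrix genes found were named by role. In each pathway list up to 2 called rises and 2 called falls of largest size at D28 against 14.5 dpp were eligible to be named, 1 eligible gene is not reported here, and P4ha1 was named after its values were seen. Alternatives were a pseudocount of 0.1, no filter, quantile or median-ratio scaling, a trended robust prior, 1 fit over all 10 groups, the replicate block, the single contrast in place of the F test, no fold limit and each library left out. Those for genes in comparisons outside the planned ones, and for pathway genes, were added after seeing the data. Sums over genes, ratios within libraries and figures were made with Python 3.11.15, pandas 2.3.3, numpy 2.4.6 and matplotlib 3.10.9. RefSeq promoters come from GRCr8, not from rn6.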

Additional observations from a re-analysis of the deposited data

Results flagged for a closer look

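For 26 matrix genes, the log2 change from D6 to D28 in culture differed from the change between 14.5 and 36.5 dpp in vivo over the same interval of age, by limma's test of the difference itself. Each value below is the change in culture minus the change in vivo. The gap was largest for Lum, which had a change of 0.62 in culture and -3.49 in vivo. Genes with a positive value in culture and a negative one in vivo were Lum (4.11), Col18a1 (3.92), Dcn (3.76), Bgn (3.45), Lamb2 (3.07), Sparc (2.91), Lama1 (2.09), Lama5 (1.35) and Fbln1 (1.33). Genes with a negative value in both, smaller in size in culture, were Col3a1 (3.14), Col1a1 (2.91), Fn1 (2.90), Lamc1 (2.81), Fbn1 (2.41), Col5a1 (2.39), Col6a2 (2.25), Postn (2.24), Eln (2.02), Col5a2 (2.01), Col4a1 (1.85), Lama4 (1.27), Nid2 (1.12), Thbs2 (1.03) and Col14a1 (1.01). In vivo, Col16a1 had a change of 2.53 against -0.06 in culture (difference -2.59). Thbs1 had -1.5 in culture against -0.47 in vivo (difference -1.04), and was not called with a pseudocount of 0.1. Nid2 and Fbln1 were not called with median-ratio scaling, and Fbln1 was not called without the first 14.5 dpp testis. Over all genes, 76.5% were called in this test.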

How the results depend on the processing

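No called gene changed direction under any alternative. Of 5639 values of single genes, 5375 kept direction and side of the threshold, 112 passed it and 152 no longer did. Without the fold limit, the matrix genes called numbered 20 (14.5 against 8.5 dpp), 17 (D6 against 8.5 dpp) and 14 (D28 against D6). Against 14.5 dpp they numbered 17, 17 and 10 for D16, D22 and D6. The shares of all genes called by this rule are not given here. Over all genes, limma's unadjusted p was below 0.05 for 5825 of 11253 (14.5 against 8.5 dpp) and 6235 of 11216 (D6 against 8.5 dpp). For D28 against D6 it was below 0.05 for 4396 of 11211. Against 14.5 dpp it was below 0.05 for 5118 of 11517 at D16, 5369 of 11517 at D22 and 3839 of 11309 at D6. With the replicate number as a block, D6 against 14.5 dpp had 1 called gene, and no other count moved by over 1.5 times. Deviations of same-numbered samples from their group means correlated weakly (126 pairs, median r 0.0166, r from -0.142 to 0.218, 11 above 0.1). Among the 18 pairs of cultured groups the median r was 0.0484, and 5 were above 0.1, up to 0.218. Whether the numbers pair the samples cannot be settled by this, since a weak correlation does not exclude shared donors. The main fits did not pair them. Leaving out 1 library at a time gave 6 to 12 called genes (14.5 against 8.5 dpp), 24 to 25 (24.5 against 14.5 dpp), 22 to 24 (53.5 against 24.5 dpp), 7 to 9 (D6 against 8.5 dpp), 16 (D28 against 8.5 dpp) and 5 to 7 (D28 against D6). Against 14.5 dpp the ranges were 6 to 8 at D16, 6 to 10 at D22, 8 to 12 at D28 and 2 to 7 at D6. Against testes of the same age they were 25 at D16, 25 to 26 at D22 and 26 to 27 at D28, and 25 to 27 for the difference of changes. Median-ratio scaling moved the median log2 change over all genes from 0.07 to -0.07 (14.5 against 8.5 dpp), -0.18 to -0.03 (24.5 against 14.5 dpp), 0.12 to -0.01 (D16 against 24.5 dpp), 0.51 to -0.01 (D22 against 30.5 dpp) and 0.63 to -0.02 (difference of changes). Those of the matrix genes were then -0.91, -1.45, 1.90, 1.75 and 1.48. The rise of Spp1 against 14.5 dpp at D28 was not called under 7 of 14 alternatives. The cause was not tested. Depth could not be weighed, since the files hold no counts.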
